A study of Mus musculus with 6 samples.

Results

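Phosphatidylcholine is the main membrane phospholipid of the liver and the coat of the lipoproteins and bile that hepatocytes secrete. It is made by the choline branch of the Kennedy pathway, in which choline is phosphorylated, activated with CTP and joined to diacylglycerol, and, in hepatocytes, also by stepwise methylation of phosphatidylethanolamine, the product of the parallel ethanolamine branch. Choline that is not used for phospholipid is oxidised in mitochondria to betaine, a methyl donor, and dietary lack of choline is known to cause fat to build up in the rodent liver.

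The 10 genes described here are the enzymes of these routes, taken from the 34745 genes of the expression table by their symbols. They are the choline kinases Chka and Chkb, the ethanolamine kinases Etnk1 and Etnk2, the cytidylyl transferases Pcyt1a and Pcyt2, the phosphotransferases Chpt1 and Cept1, the methyltransferase Pemt and the choline dehydrogenase Chdh. All 10 were found, and all 10 passed the filter on low counts that left 14137 genes for testing. The rule names them by symbol and uses no measured value, but the set was proposed with earlier results of these data known.

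RNA was sequenced from whole liver of mice given the MCD diet, the usual abbreviation for a diet without methionine and choline, for 6 weeks. The control group was 3 libraries of genotype Sox9f/f, numbered 5, 6 and 8, whose mice carry the floxed allele of Sox9, a transcription factor of bile duct cells. The other group was 3 libraries labelled Sox9HKO, numbered 9, 10 and 12. The promoter that drove Cre in that line, the age and sex of the animals and whether each library came from its own animal are not stated by the labels, so p-values measure the spread between these libraries, which may be technical. Both groups received the diet, so no value below compares the diet with normal feeding. Genotype is the only difference between the groups that the labels give.

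Sox9 itself ran against the label. Its counts were 127, 138 and 143 in the Sox9f/f libraries and 411, 491 and 626 in those labelled Sox9HKO, or 5.64 ± 0.282 against 18.7 ± 3.74 CPM, a count divided by its TMM-adjusted depth (mean and SD of 3 libraries). The log2 fold change was 1.73 ± 0.18 (SE). The transcript was thus higher in every library labelled Sox9HKO, with an adjusted p of 0.0830 in edgeR's quasi-likelihood test, and directions below are given for the labels as deposited. If the labels of the groups were exchanged, every direction below would turn. The counts do not separate exons, so the deleted part of the gene was not read on its own. Depth lay between 22826962 and 27286864 counts per library. In edgeR 0 of the 14137 genes passed an adjusted p of 0.05 (0.0%), the count at an unadjusted p under 0.05 was 2800 (19.8%), and 605 (4.28%) were called by DESeq2. In 3752 genes (26.5%) the groups did not overlap.

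Summed hepatocyte, ductular and stellate cell markers also differed with the label, while the sums of macrophage and endothelial markers overlapped. The part of these cell types in the results below was not tested. Among 10 hepatocyte markers 9 had negative fold changes and 1, Apob, a positive one, with a median of -0.21. Their summed level was 101996 to 109267 CPM in the Sox9f/f libraries and 85037 to 92432 CPM in those labelled Sox9HKO, and 2 of the 10 had an unadjusted p under 0.05, near the 19.8% of all genes: Asgr1 (-0.36 ± 0.12) and Alb (-0.35 ± 0.13). Of 8 ductular markers 6 were tested, and all 6 fold changes were positive (median 1.25; summed 56.4 to 73.2 against 131 to 234 CPM). An unadjusted p under 0.05 was reached by 4 of the 6, and Sox9 and Cd24a (1.21 ± 0.17) had the smallest p. The 7 stellate cell markers were also all positive (median 0.85; summed 147 to 224 against 270 to 438 CPM), 5 of them with an unadjusted p under 0.05, led by Lrat (0.85 ± 0.13) and Col1a1 (1.41 ± 0.31). The 7 macrophage markers all had positive values, the median being 0.46, but their sums overlapped (464 to 708 against 554 to 1069 CPM), with Adgre1 at 0.49 ± 0.22 and Marco at 0.99 ± 0.52, which came to 0.20 and 0.47 without library 10. The 5 endothelial markers were split, 2 positive and 3 negative (262 to 302 against 236 to 336 CPM), with Lyve1 at 0.57 ± 0.31 and Pecam1 at -0.23 ± 0.13, which came to 0.094 and -0.13 without library 12. In whole liver, fewer cells of a type and less RNA per cell cannot be told apart.

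Of the 10 enzymes, the oxidising enzyme Chdh stood higher and the methylating enzyme Pemt lower in the libraries labelled Sox9HKO, by 1.38-fold and to 0.754-fold of the Sox9f/f level. In edgeR 0 of the 10 passed an adjusted p of 0.05, and neither did any other gene of the table. At an unadjusted p under 0.05, 1 enzyme was higher (Chdh), where 9.74% of all tested genes were, and 1 was lower (Pemt), where 10.1% were. DESeq2 called 2 of the 10, the same genes, against 4.28% of the genes it tested. The groups did not overlap in 3 of the 10, a share close to the 26.5% of all genes: Chdh was higher in every library labelled Sox9HKO (12.2% of all genes were), and Pemt and Pcyt2 were lower in every one (14.3%). Across the 10, 6 fold changes were positive and 4 negative, with a median of 0.03 and a median size of 0.17, beside 0.00 and 0.24 over all genes.

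**Figure D1:**
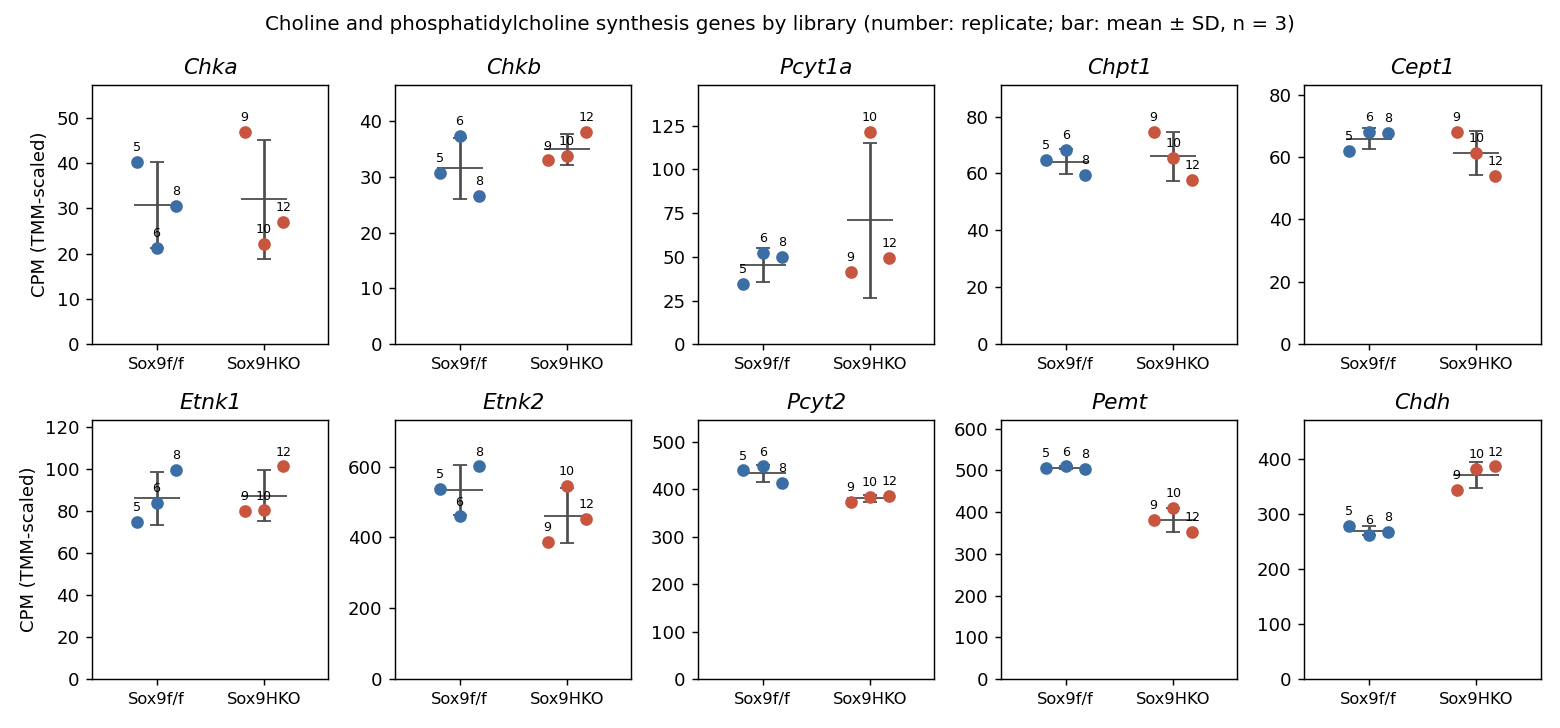
Level of each of the 10 enzymes in every library, in CPM scaled by TMM, on axes of their own. Points are libraries, and the bars are group means with SD (n = 3). Chdh and Pemt separate the groups in opposite directions, and for Pcyt1a a single library labelled Sox9HKO stands at 122 CPM.

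Pemt encodes phosphatidylethanolamine N-methyltransferase, which converts phosphatidylethanolamine to phosphatidylcholine with methyl groups from S-adenosylmethionine and is largely a hepatocyte enzyme. Its RNA (ENSMUSG00000000301, chromosome 11, 59970614 to 60046489, minus strand) was counted 11078, 13239 and 12388 times in the Sox9f/f libraries 5, 6 and 8 and 10230, 11106 and 9730 times in the libraries 9, 10 and 12 labelled Sox9HKO. Scaled for depth these were 506, 510 and 503 CPM against 382, 409 and 353 CPM. All 3 Sox9f/f libraries lay within a few CPM of each other, and all 3 of the other group lay below them. The means were 506 ± 3.42 and 381 ± 27.9 CPM (SD over the 3 libraries). The log2 fold change was -0.41 ± 0.11 (SE; edgeR quasi-likelihood adjusted p = 0.151; DESeq2 adjusted p = 0.0297). The hepatocyte markers moved the same way: relative to the mean log2 CPM of the 10 markers, a measure added after the data were seen, Pemt stood 0.22 lower on the log2 scale, and again every library labelled Sox9HKO was below every Sox9f/f library. No test was made of that difference.

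Chdh encodes the mitochondrial choline dehydrogenase, which takes choline out of phospholipid synthesis and starts its conversion to betaine. The gene (ENSMUSG00000015970, chromosome 14, 30009023 to 30040466, plus strand) had 6104, 6817 and 6587 counts in the Sox9f/f libraries and 9229, 10355 and 10646 in those labelled Sox9HKO. These correspond to 279, 262 and 267 CPM against 344, 382 and 387 CPM. The lowest library labelled Sox9HKO was above the highest Sox9f/f library. Chdh averaged 269 ± 8.35 and 371 ± 23.0 CPM. Its log2 fold change came to 0.46 ± 0.11 (SE; edgeR quasi-likelihood adjusted p = 0.144; DESeq2 adjusted p = 0.00864). Against the hepatocyte markers the difference was 0.65 on the log2 scale, larger than without them.

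Pcyt2, Chdh and Pemt varied little between the libraries of a group. A small spread is part of what gives Chdh and Pemt a small p, so it is no separate result. The comparison below is with all tested genes, not with genes of like level. Only 2.09% of them were above Pemt in mean FPKM and 7.26% above Chdh. The within-group SD of log2 CPM was 0.0466 for Pcyt2, 0.0717 for Chdh and 0.0752 for Pemt, and 99.1%, 96.0% and 95.3% of all tested genes had a larger one. In the Sox9f/f group the coefficient of variation of Pemt, 0.675%, was no larger than the 0.904% that counting error alone gives. In the group labelled Sox9HKO it was 7.32%, above the 0.983% of counting error. Each rests on 3 libraries. At the other end stood Chka at 0.513 and Pcyt1a at 0.633, exceeded by 14.4% and 8.66% of genes, where the median gene had 0.233. The libraries highest in Chka, 9 and 5, were the lowest in Pcyt1a, and those lowest in Chka, 6 and 10, were the highest in Pcyt1a; genotype labels are mixed in both pairs. The remaining 5 enzymes lay between 0.130 (Cept1) and 0.220 (Etnk2).

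The sequence upstream of the start is shown for the 2 enzymes that DESeq2 called and for the 2 that varied most between libraries. Each is the 250 bases before a RefSeq start on GRCm38.p6, the most upstream start where a gene has several, read 5′ to 3′ on the strand of the gene, with matches to the 5 motifs searched in capitals. The Pemt window is chr11:60040189-60040438 on the minus strand. It lies inside the gene, which runs from 59970614 to 60046489 in the deposited coordinates and in GENCODE. A GENCODE transcript start is 19 bases from the RefSeq start used. Windows on the plus strand are chr14:30008750-30008999 for Chdh, chr16:32430671-32430920 for Pcyt1a and chr19:3851523-3851772 for Chka.
Pemt: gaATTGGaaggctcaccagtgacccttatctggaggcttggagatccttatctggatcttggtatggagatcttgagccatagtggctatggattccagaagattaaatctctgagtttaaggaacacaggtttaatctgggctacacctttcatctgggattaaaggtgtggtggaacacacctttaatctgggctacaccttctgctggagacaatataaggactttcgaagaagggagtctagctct
Chdh: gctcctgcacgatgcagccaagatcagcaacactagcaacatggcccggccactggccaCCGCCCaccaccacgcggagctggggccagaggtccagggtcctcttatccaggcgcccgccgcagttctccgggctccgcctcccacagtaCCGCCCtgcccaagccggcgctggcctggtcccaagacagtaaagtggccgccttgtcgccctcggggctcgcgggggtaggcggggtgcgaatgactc
Pcyt1a: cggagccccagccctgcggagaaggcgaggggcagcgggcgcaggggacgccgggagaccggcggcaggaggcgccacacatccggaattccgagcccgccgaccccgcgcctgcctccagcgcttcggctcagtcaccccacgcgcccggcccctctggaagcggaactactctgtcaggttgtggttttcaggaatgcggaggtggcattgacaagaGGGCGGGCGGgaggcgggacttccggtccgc
Chka: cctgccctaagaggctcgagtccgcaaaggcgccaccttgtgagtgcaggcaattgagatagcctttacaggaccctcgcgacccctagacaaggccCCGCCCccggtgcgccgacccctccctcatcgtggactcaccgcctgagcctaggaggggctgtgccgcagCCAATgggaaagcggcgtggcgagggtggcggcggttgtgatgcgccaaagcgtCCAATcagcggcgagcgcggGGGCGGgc

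The Pemt window, inside the gene, had a GC content of 44.8% and no GC box (GGGCGG, either strand), and held 1 CCAAT box. Windows of Chdh (69.2% GC), Pcyt1a (71.6%) and Chka (68.0%) held 2 GC boxes each, which in Pcyt1a overlap each other, and the Chka window held 2 CCAAT boxes as well. The other windows of these genes differed: the 2 inner windows of Chdh (51.6% and 52.8% GC), the third of Pcyt1a and the second of Pemt held no GC box, and the second Pemt window no CCAAT box. Over all 32851 RefSeq windows of this length the median GC content was 52.4%, 32.7% held a GC box and 33.8% a CCAAT box. RefSeq gave 16 starts for 9 of the 10 enzymes, Pcyt2 having no entry in the table used. Their windows are not all separate. The first 2 of Pcyt1a overlap and share their GC boxes, and the first 2 of Cept1 share 1 GC box. The third of Pcyt1a lies wholly in exons of the gene. With shared boxes counted more than once, 10 of the 16 windows held a GC box and 4 a CCAAT box. A TATA box (TATAAA) was found in 1, before Chkb, with 12.4% of all windows holding one, and the SOX core AACAAT in 1, before an inner start of Cept1, with 9.42% of all windows. That Cept1 start lies 4436 bases from the nearest GENCODE transcript start of the gene. The E-box CACGTG, present in 6.02% of windows, was in 0 of the 16. These matches are descriptions of letters in a window and show no binding.

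The kinases catalyse the first step of each branch. Chka, choline kinase alpha (ENSMUSG00000024843, chromosome 19, 3851773 to 3894369), was found at 40.3, 21.3 and 30.6 CPM in the Sox9f/f libraries and at 47.0, 22.1 and 27.1 CPM in those labelled Sox9HKO. The groups cover nearly the same range, and the libraries within a group differ more than the groups do. The log2 fold change was 0.06 ± 0.31 (adjusted p = 0.930, edgeR). Its relative Chkb, choline kinase beta (ENSMUSG00000022617, chromosome 15, 89416405 to 89429908), was at 30.6, 37.4 and 26.5 against 33.0, 33.8 and 38.1 CPM, which overlap too, with a log2 fold change of 0.15 ± 0.15 (adjusted p = 0.591, edgeR). Relative to the hepatocyte markers Chkb stood 0.35 higher on the log2 scale in the libraries labelled Sox9HKO. There the groups did not overlap, but narrowly, the nearest libraries being 10 at -6.485 and 6 at -6.495. No test was made of that difference. The deposited model of Chkb, a minus-strand gene, runs on across Cpt1b, the muscle form of carnitine palmitoyltransferase, for 9459 shared bases. In GENCODE the lower coordinate of Chkb, its downstream end, is 89426360. Cpt1b had 1256 counts over the 6 libraries beside 5145 for Chkb, so reads of the pair may have been split either way. The level of Chka per kilobase was below that of Chkb in all 6 libraries, with ratios from 0.306 to 0.765.

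Etnk2, the ethanolamine kinase that is abundant in liver (ENSMUSG00000070644, chromosome 1, 133363572 to 133380336), stood at 538, 460 and 601 CPM in the Sox9f/f libraries and 388, 545 and 452 CPM in those labelled Sox9HKO. The ranges overlap, and the log2 fold change was -0.21 ± 0.16 (adjusted p = 0.495, edgeR). Etnk1, the more widely expressed ethanolamine kinase (ENSMUSG00000030275, chromosome 6, 143167221 to 143232307), was at 74.8, 83.7 and 99.4 CPM against 80.1, 80.2 and 101 CPM. Its group means were 86.0 ± 12.5 and 87.1 ± 12.1 CPM, which differ by less than 1 SD. The log2 fold change was 0.02 ± 0.15 (adjusted p = 0.953, edgeR).

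The cytidylyl transferases make the activated head groups, and their step is regarded as the main control point of each branch. Pcyt1a, of the choline branch (ENSMUSG00000005615, chromosome 16, 32430921 to 32475070), was counted 755, 1356 and 1228 times in the Sox9f/f libraries and 1110, 3301 and 1360 times in those labelled Sox9HKO. In CPM these were 34.5, 52.2 and 49.8 against 41.4, 122 and 49.4. Library 10 was 2.33 times the next highest library, and the other pair of that group lay inside the Sox9f/f range. The fold change of 0.64 ± 0.39 on the log2 scale (adjusted p = 0.387, edgeR) came to 0.00 without library 10. Of 8398 genes with a mean of at least 10 CPM, 4 (0.0476%) stood as far above all other libraries in library 10: Pcyt1a, the mitochondrial gene mt-Atp6 at 4967 CPM against 661 to 847 elsewhere, and the macrophage genes Cd163 at 49.1 CPM against 5.56 to 17.6 and Folr2 at 28.6 CPM against 7.34 to 10.4. The summed macrophage markers were also highest there, at 1069 CPM against 464 to 716 CPM in the other libraries. Next in those markers came libraries 9 and 5, at 716 and 708 CPM, which were the lowest in Pcyt1a, at 41.4 and 34.5 CPM. The part of macrophages in the Pcyt1a value was not tested.

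Pcyt2, of the ethanolamine branch (ENSMUSG00000025137, chromosome 11, 120610087 to 120617936, minus strand), was at 440, 448 and 414 CPM in the Sox9f/f libraries and at 373, 383 and 387 CPM in those labelled Sox9HKO. Every library of the latter group was below every one of the former, by a small margin. Group means were 434 ± 17.9 and 381 ± 7.11 CPM, which differ by more than either SD. The difference on the log2 scale was -0.19 ± 0.10 (SE; edgeR quasi-likelihood adjusted p = 0.346). Relative to the hepatocyte markers the groups overlapped and differed by 0.01 on the log2 scale.

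Chpt1 and Cept1 complete the routes. Chpt1, the cholinephosphotransferase of the Golgi (ENSMUSG00000060002, chromosome 10, 88452745 to 88504073), was at 64.7, 68.3 and 59.5 against 74.7, 65.5 and 57.8 CPM, and its log2 fold change was 0.04 ± 0.13 (adjusted p = 0.882, edgeR). Cept1, which accepts both choline and ethanolamine head groups (ENSMUSG00000040774, chromosome 3, 106502260 to 106547802), was at 61.9, 68.1 and 67.7 against 68.1, 61.4 and 54.0 CPM, with a log2 fold change of -0.11 ± 0.12 (adjusted p = 0.634, edgeR). For both genes the ranges of the groups overlap.

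**Figure D2:**
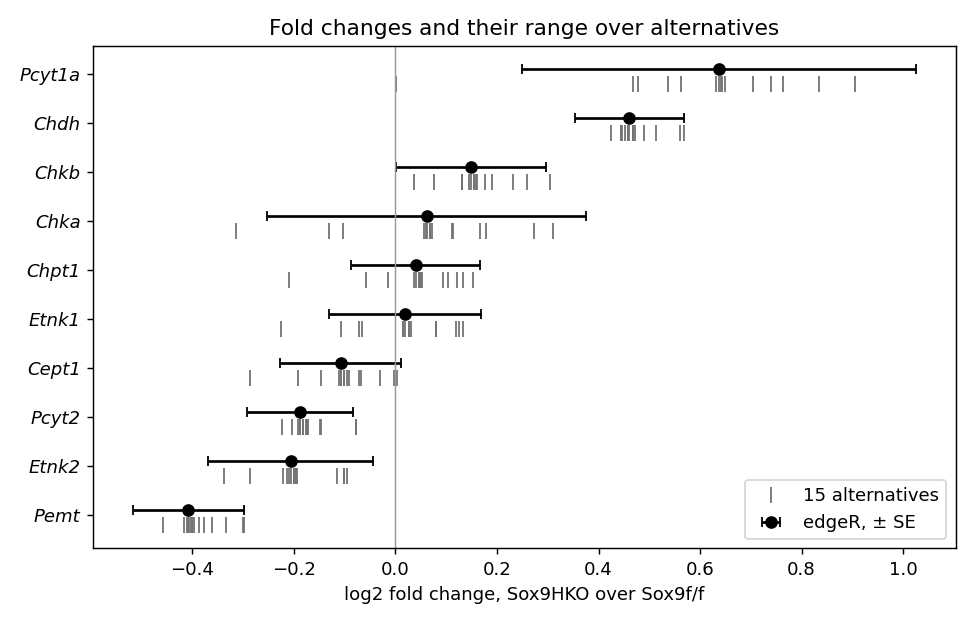
Log2 fold change of each enzyme, Sox9HKO label minus Sox9f/f, with its SE from edgeR, beside the values under each alternative processing. Chdh and Chkb stay above 0 and Pemt, Pcyt2 and Etnk2 below 0 under the 15 alternatives. Chka, Chpt1, Cept1 and Etnk1 lie on both sides of 0, and Pcyt1a comes to 0.00043 without library 10.

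Per gene length, Pemt, Etnk2, Pcyt2 and Chdh were the 4 most abundant of the enzymes. Mean FPKM over the 6 libraries was 144 for Pemt, 73.3 for Etnk2, 50.8 for Pcyt2 and 40.3 for Chdh, then 12.2 for Cept1, 5.74 for Etnk1, 5.53 for Chpt1, 4.06 for Pcyt1a, 3.20 for Chkb and 1.63 for Chka. Only 2.09% of tested genes were above Pemt, and 61.0% were above Chka. From Pemt to Etnk2 to Pcyt2, and from Chdh to Cept1 to Etnk1, the ranges of neighbours did not overlap over the 6 libraries. Pcyt2 and Chdh overlapped in range although Pcyt2 was higher in 6 of 6 libraries, and all later neighbours overlapped. The gene lengths behind the deposited FPKM are far longer than a transcript for several of these genes, such as 19385 bases for Chka, whose longest coding transcript in GENCODE is 2549 bases. With the longest coding transcript as the length, Pemt kept the first place, Etnk2 and Pcyt2 came to the same value of 216, Chdh was at 56.6, and the lowest were Chka at 12.4 and Pcyt1a at 12.2.

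**Figure D3:**
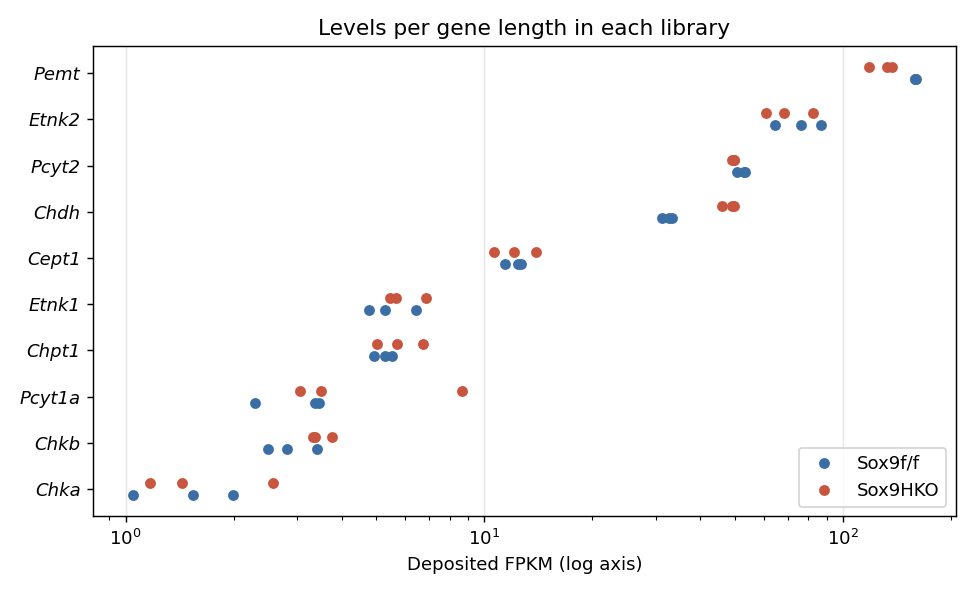
Level of each enzyme per gene length in every library, in FPKM as deposited by the authors, on a log axis. Pemt, Etnk2, Pcyt2 and Chdh lie above 30 in most libraries, and Chka is the lowest of the 10.

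Ratios of 2 enzymes within a library do not depend on its depth. The ratio of Pemt to Pcyt1a, the methylation route against the control step of the choline route, was 68.9, 45.8 and 47.4 in the Sox9f/f libraries and 43.3, 15.8 and 33.6 in those labelled Sox9HKO. All 3 of the latter were below all 3 of the former, by 0.90 on the log2 scale, and the exact two-sided permutation p of 0.1 is the smallest that 3 libraries against 3 can give. Without library 10, the one high in Pcyt1a, the difference came to -0.48. Chpt1 to Cept1 was 0.463, 0.444 and 0.389 against 0.485, 0.472 and 0.473, again without overlap (0.15 on the log2 scale, exact p = 0.1), and came to 0.074 without library 8. For the ratios of Etnk1 to Etnk2 (difference 0.23, exact p = 0.3), Pcyt1a to Pcyt2 (0.68, exact p = 0.3) and Chka to Chkb (-0.13, exact p = 1.0) the groups overlapped. Of these, Pcyt1a to Pcyt2 came to 0.21 without library 10. Adjusted over the 5 ratios, the exact p-values were between 0.25 and 1.0.

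**Figure D4:**
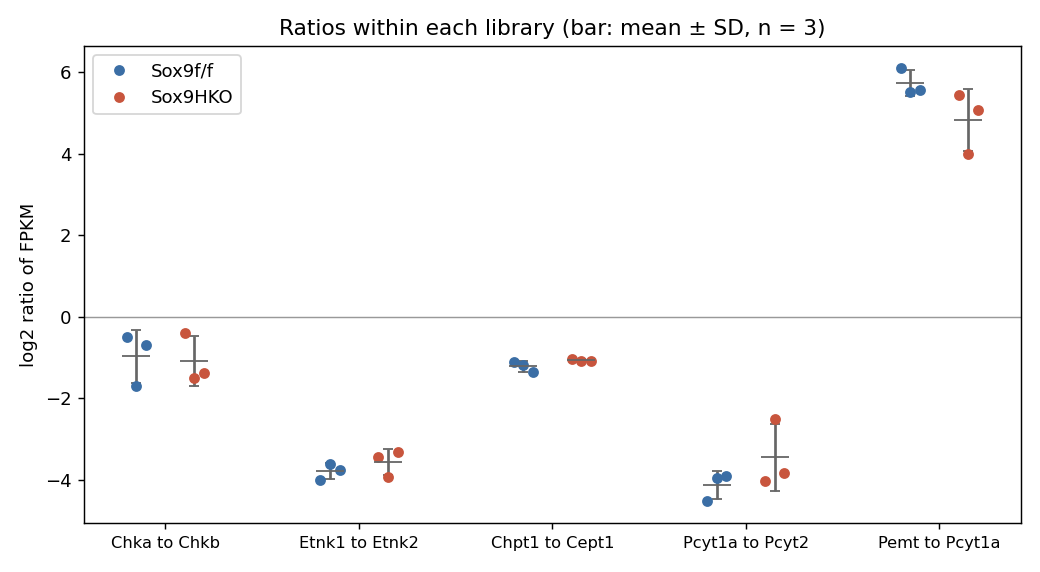
Ratio of FPKM between 2 enzymes in each library, on a log axis, for the 5 pairs compared. Points are libraries; the Pemt to Pcyt1a and Chpt1 to Cept1 ratios separate the groups, and the other 3 overlap.

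The genes around these enzymes were described by 7 lists. Choline transporters had 8 of 10 listed genes tested, Slc44a5 and Slc5a7 having 0 counts, and 7 of the 8 fold changes were positive with a median of 0.29. Slc44a1, a choline transporter of the plasma and mitochondrial membranes, was at 25.4, 25.8 and 26.7 CPM in the Sox9f/f libraries and 33.9, 30.1 and 33.0 CPM in those labelled Sox9HKO, all higher. It was the 1 transporter of 8 with an unadjusted p under 0.05, where 9.74% of all genes were higher and 19.8% passed in either direction (log2 fold change 0.32 ± 0.11, adjusted p = 0.185, edgeR). Flvcr2, a choline transporter known from the brain vasculature, had 0.30 ± 0.16.

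The route that Chdh opens was followed through 5 genes: Aldh7a1, which makes betaine, Bhmt, which passes its methyl group to homocysteine, Dmgdh and Sardh, which break down the dimethylglycine and sarcosine that follow, and Bhmt2, a relative of Bhmt. All 5 had negative fold changes, with a median of -0.24 beside 0.00 over all genes and -0.21 over the hepatocyte markers. In 4 of the 5 every library labelled Sox9HKO was lower, as in 14.3% of all genes. Sardh was at 834, 827 and 730 CPM against 622, 604 and 647 CPM (-0.35 ± 0.11, adjusted p = 0.175, edgeR), and Bhmt2, which methylates homocysteine from S-methylmethionine, at 307 ± 7.77 against 255 ± 11.3 CPM (-0.27 ± 0.10). These 2 of the 5 had an unadjusted p under 0.05, as had 10.1% of all genes in that direction. Bhmt, the enzyme that uses betaine itself, was at 953 ± 382 against 823 ± 263 CPM, which overlap (-0.21 ± 0.32, adjusted p = 0.738, edgeR), and its sign held in 13 of 15 alternatives.

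Of the 5 genes that supply or spend the methyl donor of Pemt, 4 were negative and 1 positive, with a median of -0.19. Gnmt, glycine N-methyltransferase, which spends S-adenosylmethionine in hepatocytes, was at 1185, 1017 and 988 CPM against 805, 514 and 913 CPM, lower in every library labelled Sox9HKO (-0.52 ± 0.21, unadjusted p = 0.0404, adjusted p = 0.232, edgeR). Without library 10 it came to -0.30. Mat2a, an S-adenosylmethionine synthetase, had -0.51 ± 0.35, with -0.83 to -0.27 when single libraries were left out.

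Among 19 tested genes of 20 listed for phosphatidylcholine remodelling and breakdown, 12 were positive and 7 negative (median 0.22), and 4 higher and 3 lower had an unadjusted p under 0.05, beside 9.74% and 10.1% of all genes. DESeq2 called 1 in each direction, beside 4.28% of all genes in either. Lcat, the plasma enzyme that esterifies cholesterol with an acyl chain of phosphatidylcholine, was at 458, 537 and 444 CPM against 345, 330 and 277 CPM (-0.60 ± 0.14, edgeR adjusted p = 0.144, DESeq2 adjusted p = 0.0105). Gpcpd1, which releases choline from glycerophosphocholine, was at 49.7, 37.5 and 34.6 CPM against 48.8, 116 and 85.0 CPM (1.03 ± 0.29, edgeR adjusted p = 0.154, DESeq2 adjusted p = 0.0213). Its lowest library labelled Sox9HKO lay within the Sox9f/f range.

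The other 3 lists were small. Of 5 transfer and export genes 3 were positive and 2 negative; Stard10, a lipid transfer protein, was at 778 ± 53.9 against 633 ± 55.0 CPM (-0.30 ± 0.12, unadjusted p = 0.0408, edgeR) and Atp8b1, a canalicular phospholipid flippase, had 0.27 ± 0.15. Of 4 genes for phosphatidylethanolamine and phosphatidylserine synthesis 2 were positive and 2 negative, with Selenoi, the ethanolaminephosphotransferase, at 0.21 ± 0.16 and Ptdss1, a phosphatidylserine synthase, at -0.17 ± 0.15. Among 4 relatives of the kinases and cytidylyl transferases, Chat had 0 counts, 2 fold changes were positive and 1, that of Phospho1 (-0.37 ± 0.18), a phosphatase of phosphocholine and phosphoethanolamine, was negative. Etnppl, the lyase that degrades phosphoethanolamine, was at 55.6 ± 13.8 against 91.7 ± 31.1 CPM (0.72 ± 0.27, unadjusted p = 0.0291, edgeR; 0.44 without library 12), and Pcyt1b, the second cytidylyl transferase for choline, was at 0.263 ± 0.0876 against 0.589 ± 0.0906 CPM (1.15 ± 0.44), on 4 to 19 counts a library.

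**Figure D5:**
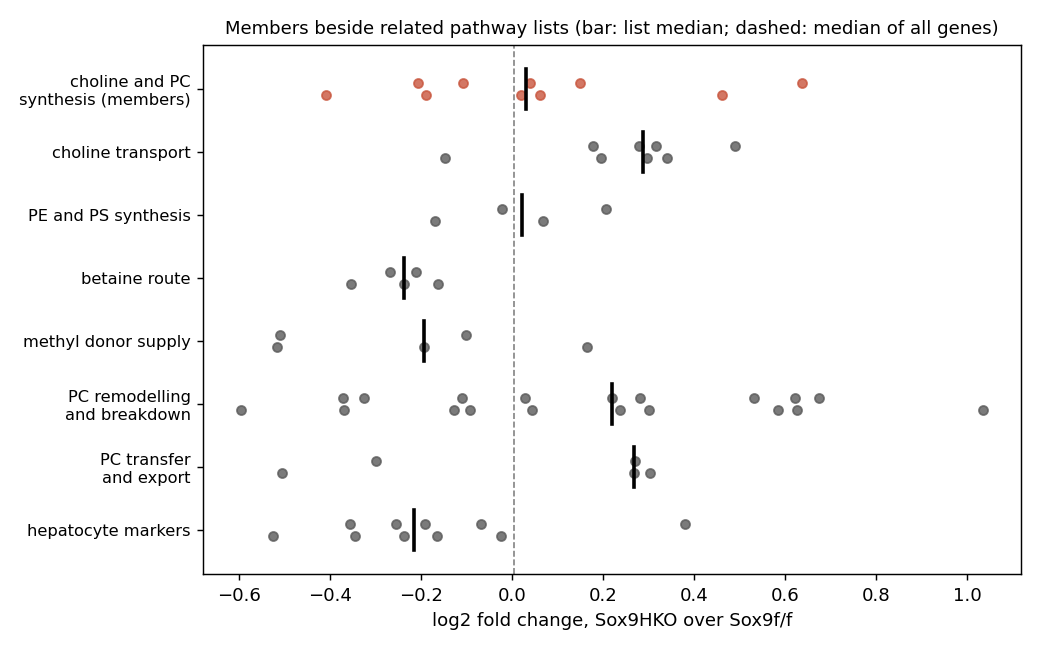
Log2 fold changes of the 10 enzymes, of the tested genes of 6 pathway lists and of the hepatocyte markers, Sox9HKO label minus Sox9f/f; each point is a gene and each bar a median. The 5 genes of the betaine list all lie below 0 and 7 of 8 choline transporters above it; the other lists have genes on both sides.

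Other genes had nearly the profile of the 2 enzymes of smallest p. Likeness was measured as the root mean square difference between z-scored log2 CPM over the 6 libraries, among 12720 genes with a mean of at least 1 CPM. Z-scoring removes the size of a change. Genes that separate the groups in the same direction with little spread thus come close to enzymes picked for a small p. Shared regulation was not tested. Closest to Chdh were Cd24a (0.107), which is also a ductular marker of the list above, Qser1 (0.111) and Kdm7a (0.122), with 123 genes under 0.3. Cd24a, Qser1 and Kdm7a had log2 fold changes of 1.21, 0.49 and 0.80, against 0.46 for Chdh. Closest to Pemt were Serpina1b (0.0656), an alpha-1-antitrypsin gene from a family of near-identical copies whose counts are uncertain for that reason, Hgfac (0.108), the hepatocyte growth factor activator, and Inpp5a (0.109), with 78 genes under 0.3.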

How the data were processed

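Messenger RNA of whole mouse liver was sequenced in 3 Sox9f/f and 3 Sox9HKO libraries, grouped by the genotype label. The table deposited by the authors gives raw counts per gene and FPKM, per the file headers. Tools listed per the submitters' processing notes were HISAT2 2.0.4 and StringTie 1.3.0, with mm10 and GRCm38.p4 as builds. How they were used, what did the counting, and whether strand was kept, no label or header states. The deposited FPKM equalled the count divided by library total and 1 fixed length per gene to within 0.00339% over 12196 genes with at least 20 counts, and is not TMM-scaled. Coordinates are those of the table.

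The main test of the counts was that of edgeR 4.0.16 under R 4.3.3 (filterByExpr, TMM, robust quasi-likelihood test, Benjamini-Hochberg adjustment over 14137 genes, threshold 0.05), with no covariates, and DESeq2 1.42.0, limma 3.58.1, other scalings, filters, a length and GC correction and leaving out each library were alternatives. CPM uses TMM-scaled sizes; TMM factors were 0.953 to 0.976 in Sox9f/f and 1.025 to 1.065 in Sox9HKO libraries, and without TMM the log2 fold change of the median gene would lie 0.11 higher. The biological coefficient of variation was 0.216. The scripts were tested on simulated data. Ratios of FPKM, without a pseudocount, were compared with exact two-sided permutation tests on the log2 scale (scipy 1.17.1).

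The enzymes and lists were chosen with earlier results of these data known. Named genes were the 10 enzymes, the 2 of smallest p of each list, the 3 of nearest profile to Chdh and to Pemt, and Sox9; genes that stood apart in library 10, Apob, Bhmt and Phospho1 were named after their values were seen. Flvcr1, Flvcr2 and Selenoi were matched by identifier, as the table holds older symbols. Upstream sequences are from RefSeq (GRCm38.p6), and GENCODE M21 gave transcript lengths and the gene coordinates set beside the deposited ones. Gene overlaps were read from the deposited coordinates. Other gene overlaps were Cept1 with Dennd2d (771 bases) and Dram2 (5 bases), Chdh with Cacna1d (518 bases) and Chkb with C730034F03Rik (320 bases). Reads of these pairs may be shared. Cacna1d had 82 counts over the 6 libraries beside 49738 for Chdh. Chpt1 with Sycp3, Etnk1 with RP24-266J20.3 and Chka with Gm16066 also overlapped, the partner having 0 counts in each case.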

Additional observations from a re-analysis of the deposited data

How the results depend on the processing

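In edgeR with TMM 0 genes passed the adjusted threshold; DESeq2 called 605 genes, of which 2 were among the 10 enzymes (Chdh and Pemt), edgeR without a low-count filter called 10, and leaving out 1 library gave 0 to 3. Chdh (log2 fold change 0.42 to 0.57, adjusted p 0.00864 to 0.353), Pemt (-0.46 to -0.30, adjusted p 0.0297 to 0.357), Pcyt2 (-0.22 to -0.08), Etnk2 (-0.34 to -0.09) and Chkb (0.04 to 0.31) kept their sign under the 15 other scalings, tests, filters and left-out libraries. Pcyt1a (0.00 to 0.90) did not turn, but came to 0.00043 without library 10. Directions that turned were those of small changes. With length and GC trends removed Chka came to -0.10, Chpt1 to -0.21, Etnk1 to -0.23 and Selenoi to -0.040, and with limma voom Etnk1 came to -0.071. Library size alone put Cept1 at 0.0039. Relative to the hepatocyte markers, an alternative chosen after seeing the data, Cept1 stood at 0.081 and Pcyt2 at 0.0059. Leaving out 1 library in turn gave -0.31 to 0.31 for Chka, -0.058 to 0.12 for Chpt1, -0.11 to 0.13 for Etnk1 and -0.50 to 0.11 for the log2 ratio of Chka to Chkb. The cause was not tested. No paired analysis was possible because the groups share no replicate numbers. With 3 libraries a group, the exact test cannot go below 0.1.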
